A study of Sus scrofa with 20 samples.

Results

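VDAC1 (ENSSSCG00000014296) and DLD (ENSSSCG00000015443) are 2 of the 21306 pig genes that the count lists of both breeds hold, and their reads were followed in the testis of all 20 boars. The genes were selected on the Duroc contrast between high and low sperm DNA fragmentation, in which the study calls both, while its Landrace list holds neither. The Duroc difference between the DFI groups is therefore given as a description, with no test, whereas Landrace boars and the breed contrasts were tested across all genes. Each breed contrast holds a Duroc group, whose values took part in the choice, so its p-values are to be read with that limit. Testis RNA came from Norsvin Landrace boars of low (n = 5) and high (n = 4) sperm DNA fragmentation index (DFI) and from Norsvin Duroc boars of low (n = 5) and high (n = 6) DFI, with 1 library per boar. DFI is the percentage of red fluorescence of sperm stained with acridine orange, where red marks denatured DNA. The labels name no treatment, and all were artificial insemination boars chosen for extreme DFI, so that DFI group is not an assigned condition. The age of each boar at slaughter was not given in the sources used here, and the piece of tissue was taken from the middle of 1 testis.

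VDAC1 encodes a channel of the outer mitochondrial membrane through which ATP, ADP and other metabolites pass, and it binds hexokinases and, through a chaperone, calcium channels of the endoplasmic reticulum. DLD encodes dihydrolipoamide dehydrogenase, the E3 subunit that reoxidizes lipoamide in the pyruvate, 2-oxoglutarate and branched-chain 2-oxoacid dehydrogenase complexes and in the glycine cleavage system. In testis, mitochondria serve germ cells that rely in part on isozymes of their own, and in Leydig cells they hold the first step of steroid synthesis.

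The libraries held 18086448 to 51782156 counted reads, with LH1, the first boar of the Landrace high group, at the lower end and 34527935 in the next smallest. Boars are written LL1 to LL5 and LH1 to LH4 for Landrace of low and high DFI, and DL1 to DL5 and DH1 to DH6 for Duroc. VDAC1 had between 399 (LH1) and 2453 (LH2) reads and DLD between 938 (LH1) and 4922 (LH2), which puts the counting error of a single boar, taken as 1 over the square root of its reads, at no more than 5.01% for VDAC1 and 3.27% for DLD. LL2 and DL5 had the same counts of both genes (801 and 2037), but only 16 of 8803 well-covered genes had equal counts in these libraries. All 4 Landrace high DFI boars and the low DFI boars LL1 and LL2 carry titles from 1 run of consecutive numbers, and LL3, LL4, LL5 and all Duroc boars carry other numbers. What the numbers stand for is not given in the sources used here. Levels are CPM, counts scaled to libraries of equal size, after normalization by the trimmed mean of M values, and a log2 fold change (logFC) is high minus low DFI unless a breed contrast is named.

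In Landrace, VDAC1 was at 16.8 CPM in LL1, 18.9 in LL2, 17.6 in LL3, 24.8 in LL4 and 21.6 in LL5. The high DFI boars were at 22.1 CPM in LH1, 57.0 in LH2, 39.1 in LH3 and 26.0 in LH4. LH2, LH3 and LH4 lay above every low DFI boar, but LH1 lay below LL4, and so the groups overlapped. The means were 19.9 ± 3.28 CPM (SD, n = 5) at low DFI and 36.0 ± 15.8 CPM (SD, n = 4) at high DFI. The logFC was 0.86 (SE 0.24), a 1.81-fold higher level, with an adjusted p of 0.122 in edgeR's quasi-likelihood test. The exact two-sided permutation test of the log2 level over the 126 splits of the 9 boars gave p = 0.0317, or 0.191 after Benjamini-Hochberg adjustment over 9 such comparisons, where the smallest p these splits allow is 0.0159.

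DLD in the Landrace low group was at 46.1 CPM in LL1, 48.2 in LL2, 48.6 in LL3, 54.9 in LL4 and 58.9 in LL5. In the high group it was at 51.9 CPM in LH1, 114 in LH2, 74.0 in LH3 and 59.0 in LH4. LH4 was only just above LL5, LH1 was below both LL4 and LL5, and LH2 was far above the rest. The means were 51.3 ± 5.35 CPM (SD, n = 5) and 74.8 ± 27.9 CPM (SD, n = 4). The logFC was 0.55 (SE 0.20), or 1.46-fold, with an adjusted p of 0.189 in edgeR's quasi-likelihood test and p = 0.0635 in the exact permutation test (0.191 adjusted over the 9 comparisons).

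Neither Landrace difference thus passed the adjusted threshold of 0.05, and no other gene did (0.0% of 14519 tested), although 12.1% of the genes had an unadjusted p under 0.05 with a positive logFC and 4.53% with a negative one. Limma's voom also called 0 genes, whereas edgeR's likelihood ratio test as run here called 767 and DESeq2 842. The study used a likelihood ratio test of an earlier edgeR, called fewer Landrace genes and did not list VDAC1. Why the 2 runs differ was not tested. VDAC1 passed in the likelihood ratio test (adjusted p = 0.00813), with 5.14% of all genes called up by that test, in DESeq2 (adjusted p = 0.019) and in 1 quasi-likelihood fit of all 20 boars (adjusted p = 0.046). That last fit called 324 of 14636 genes. It shares its estimate of the spread with the Duroc boars that chose the genes, so its call is not separate support from Landrace. Over the alternatives for VDAC1 the adjusted p ran from 0.00813 to 0.356. The adjusted p of DLD was 0.057 in the likelihood ratio test, 0.0948 in DESeq2 and 0.0586 in the fit of all 20 boars. Boar LH2 set the size of both Landrace differences: without it, the logFC was 0.55 (adjusted p = 0.323) for VDAC1 and 0.27 (adjusted p = 0.467) for DLD in edgeR. Within the 6 boars of consecutive titles, 2 low and 4 high, the logFC was 1.02 (SE 0.36) for VDAC1 and 0.68 (SE 0.29) for DLD (adjusted p = 0.356 and 0.399 in edgeR), and the other 3 Landrace boars are all of low DFI.

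**Figure D1:**
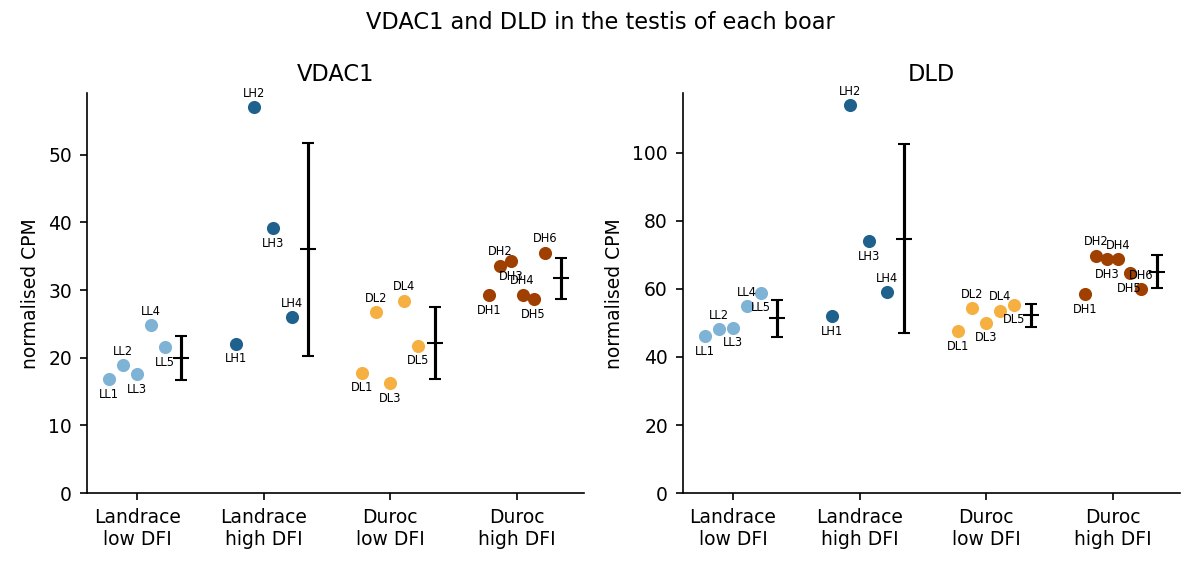
Normalised CPM of VDAC1 (left) and DLD (right) in each boar, by breed and DFI group, with 1 point per boar and the group mean with its SD as a bar. The 6 Duroc high DFI boars all lie above the 5 Duroc low DFI boars for both genes, but the genes were chosen on this Duroc difference. In Landrace the groups overlap and LH2 stands highest, at 57.0 CPM of VDAC1 and 114 CPM of DLD.

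Among the Duroc low DFI boars, VDAC1 was at 17.8 CPM in DL1, 26.7 in DL2, 16.3 in DL3, 28.4 in DL4 and 21.8 in DL5. In the 6 Duroc high DFI boars it ran from 28.7 (DH5) to 35.5 CPM (DH6), with a median of 31.5. The lowest high DFI boar was just above DL4, and the groups did not overlap. The means were 22.2 ± 5.28 CPM (SD, n = 5) and 31.8 ± 3.02 CPM (SD, n = 6), and the logFC was 0.51 (SE 0.14), or 1.43-fold.

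For DLD the Duroc low DFI boars had 47.6 CPM in DL1, 54.4 in DL2, 50.1 in DL3, 53.6 in DL4 and 55.4 in DL5. The high DFI boars ran from 58.5 (DH1) to 69.8 CPM (DH2), with a median of 66.6, again with no overlap. The means were 52.2 ± 3.26 CPM (SD, n = 5) and 65.0 ± 4.90 CPM (SD, n = 6), and the logFC was 0.31 (SE 0.07), or 1.24-fold. The Duroc values of both genes chose them, so the separation of the groups supports nothing further. How often other genes separate the Duroc groups was not examined. Over all genes, the Duroc contrast called 0.0136% of 14666 by quasi-likelihood (2 genes), 376 genes by the likelihood ratio test and 869 by DESeq2, counts that say nothing of the pair. With any 1 Duroc boar left out, the logFC ran from 0.42 to 0.62 for VDAC1 and from 0.28 to 0.35 for DLD. The Duroc minus the Landrace logFC was -0.34 (SE 0.29) for VDAC1 and -0.23 (SE 0.21) for DLD in the fit of all boars, given without a test because the Duroc part of it chose the genes.

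Ordered by group mean, VDAC1 was lowest in Landrace low, then Duroc low, Duroc high and Landrace high, and DLD had the same order. A Duroc group is 1 arm of each breed contrast, and its values took part in choosing the genes. The p-values of these contrasts are therefore not free of that choice. The low DFI differences were smaller than their standard errors. Duroc minus Landrace at low DFI was 0.15 (SE 0.20) on the log2 scale for VDAC1 (adjusted p = 0.763 in edgeR and 0.484 in the exact permutation test) and 0.02 (SE 0.15) for DLD (adjusted p = 0.957 and exact permutation p = 0.746), in a contrast that called 4.92% of 14636 genes. The high DFI neighbours differed by -0.19 (SE 0.21) for VDAC1 (adjusted p = 0.637 in edgeR and 0.724 in the exact permutation test) and by -0.20 (SE 0.15) for DLD (adjusted p = 0.438 and exact permutation p = 0.619), in a contrast that called 5.73% of genes. Both high DFI values depended on LH2, without which the breed difference was 0.12 (VDAC1) and 0.08 (DLD), with the sign turned. The breed difference of DLD at low DFI was -0.01 without LL1. In spread, the Landrace high group stood apart, with an SD of 15.8 CPM for VDAC1 against 3.02 to 5.28 CPM in the other groups.

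Within groups, VDAC1 and DLD varied together. For each boar the deviation of its log2 level from the group mean was taken, which removes the group differences that chose the genes. Over the 20 boars Pearson's r was 0.84 (p = 0.00076 from 100000 permutations within groups, 0.00532 adjusted over 7 relations) and Spearman's rho 0.70 (permutation p = 0.00367, adjusted 0.0201). In the 9 Landrace boars r was 0.96 (permutation p = 0.00293, adjusted 0.0103) and rho 0.93 (permutation p = 0.00574, adjusted 0.0201). In the 11 Duroc boars r was 0.44 (permutation p = 0.164, adjusted 0.34) and rho 0.36 (permutation p = 0.266). Without LH1 and LH2, the boars farthest from the median in VDAC1, r was 0.66 over 18 boars (permutation p = 0.00732, adjusted 0.0512) and 0.89 over 7 Landrace boars (permutation p = 0.034, adjusted 0.0972), so past the adjusted threshold the relation rests on these boars. Whether r differed between the breeds was not tested.

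Set against each other, VDAC1 had 38.8 ± 3.81 reads per 100 DLD reads in Landrace low (SD, n = 5), 47.3 ± 4.88 in Landrace high (SD, n = 4), 42.2 ± 8.43 in Duroc low (SD, n = 5) and 49.1 ± 5.86 in Duroc high (SD, n = 6). These are read ratios that also depend on transcript length and say nothing of which gene is more abundant. In Landrace the log2 ratio was 0.29 higher at high DFI (exact permutation p = 0.0476, adjusted 0.191 over the 9 comparisons), and the groups overlapped, since LL4 had 45.2 and LH1 and LH4 had 42.5 and 44.0 reads.

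Within a DFI group, the DFI of the boar was not seen to go with either gene. In the study, the DFI of many boars came from a single ejaculate, and repeated ejaculates of some boars differed widely. The order of DFI within a group is thus uncertain, and these correlations could miss a relation. DFI splits into separate clusters by the selection of the boars, so no pooled correlation is given. With DFI and log2 level centred on the group means, r over 20 boars was -0.11 for VDAC1 (permutation p = 0.788, adjusted 0.788) and -0.14 for DLD (permutation p = 0.777, adjusted 0.788), with Spearman's rho of -0.08 (permutation p = 0.762) and -0.33 (permutation p = 0.257). Without LH1 and LH4, the boars with the DFI farthest from the median, r was -0.33 and -0.41 (permutation p = 0.0702 and 0.0815). The 4 Landrace high DFI boars had a DFI of 5.58% (LH1), 6.41% (LH2), 7.34% (LH3) and 8.04% (LH4). In that order, VDAC1 was at 22.1, 57.0, 39.1 and 26.0 CPM. In the 6 Duroc high DFI boars alone, from 4.13% to 5.63%, r was -0.67 for VDAC1 (exact permutation p = 0.194) with a rho of -0.26 (exact permutation p = 0.658), and -0.40 for DLD (exact permutation p = 0.378) with a rho of -0.43 (exact permutation p = 0.419). Left without DH1 and DH4, 4 boars remained, with r of -0.28 for VDAC1 and -0.93 for DLD (exact permutation p = 1.0 and 0.0417, adjusted 1.0 and 0.0972).

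**Figure D2:**
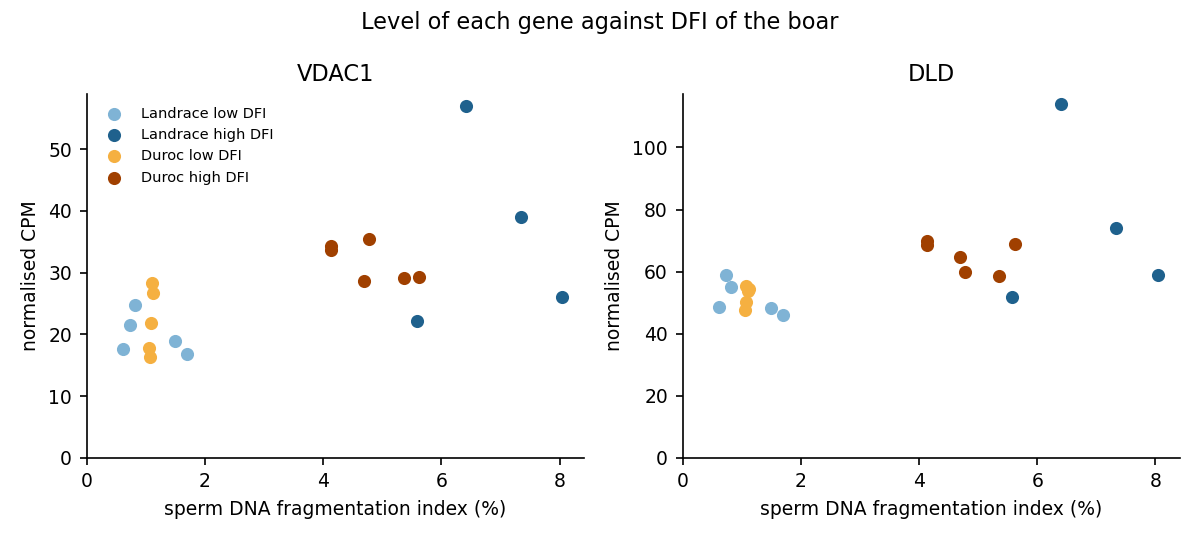
Normalised CPM of VDAC1 (left) and DLD (right) against the sperm DFI of the boar in percent, with 1 point per boar coloured by group. The low DFI boars lie between 0.62% and 1.7% and the high DFI boars between 4.13% and 8.04%, with the highest levels at 6.41% (LH2) and not at the highest DFI.

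The other channel of the family with a symbol in the table of names, VDAC3, did not follow VDAC1. It was at 50.9 CPM (mean) in Landrace low and 46.5 in Landrace high, a logFC of -0.12 (SE 0.07, adjusted p = 0.441 in edgeR), and at 46.6 and 45.5 CPM in Duroc, a logFC of -0.04 (SE 0.07, adjusted p = 0.789). VDAC2 could not be matched to an identifier. Whether VDAC1 and VDAC3 differ in their logFC was not tested.

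Of 24 proteins known to bind VDAC1 or to work beside it, 20 had an identifier and all 20 were tested in each breed. No gene of this list passed the adjusted threshold. With an unadjusted p under 0.05 there were 4 up and 1 down in Landrace, against 12.1% and 4.53% of all genes. The median logFC was 0.01 against -0.01 over all genes. In Duroc 3 were up and 1 down, against 11.3% and 9.89% of all genes, with a median of 0.09 against 0.01. ITPR1, an inositol trisphosphate receptor that releases calcium from the endoplasmic reticulum, had a logFC of 0.67 (SE 0.15, adjusted p = 0.0972 in edgeR) in Landrace and 0.31 (SE 0.17) in Duroc. For ITPR2, another receptor of that family, the values were 0.28 (SE 0.10, adjusted p = 0.194) and 0.20 (SE 0.09). HK1, a hexokinase that docks on VDAC1 and has a germ cell form, went the other way, with -0.22 (SE 0.09, adjusted p = 0.275) in Landrace and -0.26 (SE 0.08) in Duroc.

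Around DLD, the E1 and E2 subunits of its complexes were mostly higher at high DFI, without a gene past the adjusted threshold. Of 15 genes fixed for these complexes, 12 had an identifier, with 11 tested in Landrace and 12 in Duroc. A positive logFC was found for 9 of 11 and 11 of 12, against 47.3% and 51.8% of all genes. In each breed 4 had an unadjusted p under 0.05 with a positive and 0 with a negative logFC, against 12.1% and 11.3% of all genes up, with a median logFC of 0.18 in Landrace and 0.25 in Duroc.

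The pyruvate dehydrogenase subunits showed small differences. In Landrace the logFC was 0.18 (SE 0.14) for PDHA1 and 0.09 (SE 0.12) for PDHB, which form E1, 0.18 (SE 0.13) for DLAT, the E2 subunit, and 0.21 (SE 0.14) for PDHX, which anchors DLD to the complex. In Duroc the values were 0.13 (SE 0.07), 0.07 (SE 0.04), 0.16 (SE 0.06) and 0.26 (SE 0.08) in the same order. All 4 were thus nearer to 0 than DLD in both breeds, a difference that was not tested.

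The 2-oxoglutarate and branched-chain enzymes held the larger values. OGDH, the E1 subunit that uses 2-oxoglutarate, was at 228 CPM in Landrace low and 370 in Landrace high, with a logFC of 0.70 (SE 0.16, adjusted p = 0.0972 in edgeR), and had a logFC of 0.28 (SE 0.23) in Duroc. DLST, its E2 partner, had 0.51 (SE 0.15, adjusted p = 0.125) and 0.36 (SE 0.09). OGDHL, a related E1 gene, had -0.22 (SE 0.15, adjusted p = 0.506) and -0.08 (SE 0.17).

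BCKDHB, the beta subunit of branched-chain E1, had the highest logFC of the list, at 1.81 (SE 0.53, adjusted p = 0.128 in edgeR) in Landrace, where its mean was 23.0 CPM at low and 80.6 CPM at high DFI, and 0.71 (SE 0.42) in Duroc. The Landrace groups overlapped, with 11.7 to 33.7 CPM at low and 25.0 to 184 CPM at high DFI. BCKDHA, the alpha subunit, had 0.75 (SE 0.24, adjusted p = 0.152) and 0.42 (SE 0.14), and DBT, the E2 subunit, 0.18 (SE 0.13, adjusted p = 0.544) and 0.12 (SE 0.12). The glycine cleavage genes were low: AMT was between 3.31 and 3.92 CPM in the group means, with a logFC of -0.04 (SE 0.27) in Landrace and 0.24 (SE 0.12) in Duroc, and GLDC, near 1 CPM, was tested in Duroc alone, with 0.31 (SE 0.19). PDHA2, DHTKD1 and GCSH could not be matched.

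**Figure D3:**
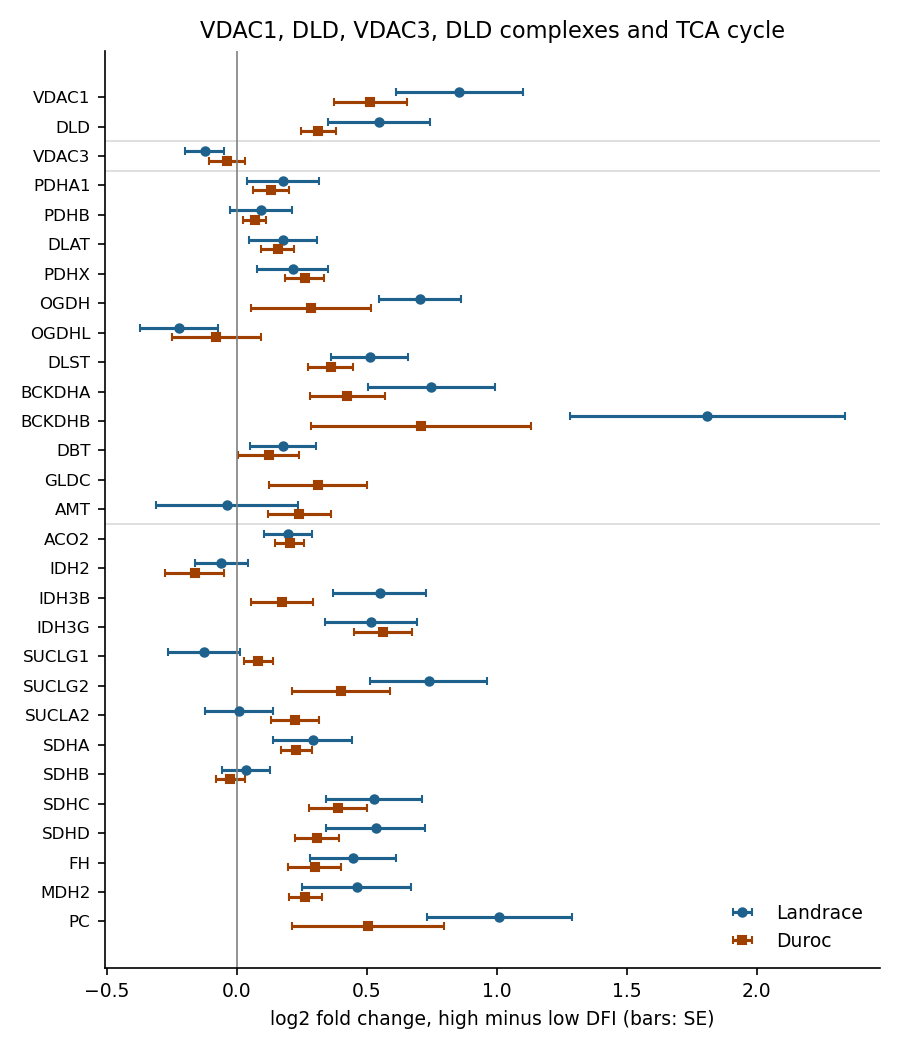
Log2 fold change of high minus low DFI, with the standard error as a bar, for VDAC1 and DLD, for VDAC3, for the genes of the DLD complexes and for the TCA cycle, in Landrace (circles) and Duroc (squares). BCKDHB in Landrace is farthest from 0, at 1.81, and VDAC3, OGDHL and IDH2 lie below 0 in both breeds.

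The kinases, phosphatases and lipoate enzymes that act on the DLD complexes showed no common direction. Of 10 matched genes, none in Landrace reached an unadjusted p under 0.05, and 1 up and 2 down of 9 tested did in Duroc. Over all genes, 12.1% were up and 4.53% down in Landrace, and 11.3% up and 9.89% down in Duroc. No gene of this list passed the adjusted threshold in either breed. PDPR, the regulatory subunit of pyruvate dehydrogenase phosphatase, had a logFC of 0.46 (SE 0.11) in Duroc and 0.13 (SE 0.13) in Landrace. PDP1, the catalytic subunit, had -0.29 (SE 0.11) and -0.16 (SE 0.09), and MPC2, a pyruvate carrier of the inner membrane, -0.14 (SE 0.05) and -0.08 (SE 0.08).

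In the TCA cycle, to which 2-oxoglutarate dehydrogenase belongs, 8 of 14 tested genes had an unadjusted p under 0.05 and a positive logFC in each breed and 0 a negative one, against 12.1% and 11.3% of all genes up, with a median logFC of 0.45 in Landrace and 0.25 in Duroc. None passed the adjusted threshold. IDH3G, a subunit of the NAD-dependent isocitrate dehydrogenase, had a logFC of 0.51 (SE 0.18, adjusted p = 0.17 in edgeR) in Landrace and 0.56 (SE 0.11, adjusted p = 0.112) in Duroc. MDH2, mitochondrial malate dehydrogenase, had 0.46 (SE 0.21, adjusted p = 0.297) and 0.26 (SE 0.06, adjusted p = 0.113). SDHA, the flavoprotein of succinate dehydrogenase, had 0.29 (SE 0.15, adjusted p = 0.375) and 0.23 (SE 0.06, adjusted p = 0.113).

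The nuclear genes of the respiratory chain and ATP synthase were split. Of 15 tested, 8 had a positive and 7 a negative logFC in each breed. At an unadjusted p under 0.05, 1 was up and 0 down in Landrace and 2 up and 1 down in Duroc. This is near the shares of all genes, 12.1% and 11.3% up and 4.53% and 9.89% down. NDUFS1, of complex I, had a logFC of 0.25 (SE 0.14) in Landrace and 0.20 (SE 0.07) in Duroc. ATP5PO, of ATP synthase, had 0.06 (SE 0.08) and -0.18 (SE 0.06).

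All 13 protein genes of the mitochondrial genome had a positive logFC in both breeds. In Landrace all 13 had an unadjusted p under 0.05, against 12.1% of all genes up, with a median of 0.67. In Duroc 2 of 13 did, near the 11.3% of all genes, with a median of 0.40. COX2, a subunit of cytochrome c oxidase, had 0.68 (SE 0.16, adjusted p = 0.102 in edgeR) and 0.32 (SE 0.16). ATP8 and ATP6 of ATP synthase had 0.67 (SE 0.18) and 0.61 (SE 0.17) in Landrace and 0.28 (SE 0.21) and 0.30 (SE 0.20) in Duroc. These genes lie on 1 molecule and most of them are transcribed together, so they are not 13 separate observations.

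Of the germ cell isozymes, 4 were matched and all 4 had a negative logFC in both breeds, with 2 in Landrace and 1 in Duroc down at an unadjusted p under 0.05, against 4.53% and 9.89% of all genes. HK1, already counted among the VDAC1 partners, was the gene down in Duroc, and HK1 and LDHC were those in Landrace. LDHC, the lactate dehydrogenase of germ cells, had -0.25 (SE 0.10) in Landrace and -0.08 (SE 0.08) in Duroc, and GAPDHS, the sperm glyceraldehyde phosphate dehydrogenase, -0.20 (SE 0.10) and -0.15 (SE 0.08). Of the steroidogenic genes, 6 of 7 had a positive logFC in Landrace, all but HSD17B3 at -0.05 (SE 0.12), named after its value was seen, and 7 of 7 in Duroc. At an unadjusted p under 0.05 they numbered 5 up in Landrace and 3 up in Duroc among 7 tested, with 0 down, against 12.1% and 11.3% of all genes up, and the median logFC was 1.22 and 0.72. These counts include CYP11A1 and FDXR, which the study had already called in both breeds.

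FDXR, which passes electrons by way of a ferredoxin to the mitochondrial steroid hydroxylases, had a logFC of 1.22 (SE 0.25, adjusted p = 0.0972 in edgeR) in Landrace and 0.85 (SE 0.25, adjusted p = 0.126) in Duroc. CYP11A1, which cleaves the cholesterol side chain inside mitochondria, had 1.50 (SE 0.40, adjusted p = 0.112) and 1.02 (SE 0.38, adjusted p = 0.167). SRD5A1, a steroid 5-alpha-reductase, had 1.48 (SE 0.36, adjusted p = 0.102) and 0.21 (SE 0.45, adjusted p = 0.817).

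Markers of several testis cell types were mostly higher at high DFI, without a gene past the adjusted threshold. The summed level of 6 Leydig cell markers was 1340 to 4220 CPM in Landrace low and 4590 to 12100 CPM in Landrace high, with no overlap, and 867 to 6020 CPM in Duroc low and 3450 to 7090 CPM in Duroc high. How often other genes separate the Landrace groups was not examined. CYP17A1 and INSL3 had the highest levels in this sum, and STAR and HSD3B1 could not be matched. LH2, the boar of the highest VDAC1 and DLD, had the highest Leydig sum, and DL2 and DL4, with the highest VDAC1 among Duroc low boars, had the highest Leydig sums of that group. Not every boar followed this order. DH4 had the lowest Leydig sum of Duroc high, 3450 CPM, with DLD at 68.8 CPM, while DH6, with the highest sum, had 59.9 CPM. DL5 had the highest DLD of Duroc low, 55.4 CPM, with a Leydig sum of 2580 CPM. LH1 had less VDAC1 than LH4 but a higher Leydig sum. An unadjusted p under 0.05 with a positive logFC was seen for 5 of the 6 markers in Landrace and 3 in Duroc, against 12.1% and 11.3% of all genes. HSD17B3 was near 0, at -0.05 (SE 0.12) in Landrace and 0.04 (SE 0.17) in Duroc. CYP11A1, CYP17A1 and HSD17B3 are also among the steroidogenic genes above, so the 2 lists are not separate observations. The sum of 5 peritubular and smooth muscle markers was 78.7 to 154 CPM in Landrace low and 151 to 256 in Landrace high, and 94.9 to 185 and 118 to 244 CPM in Duroc, and that of 3 endothelial markers 27.5 to 48.4 and 38.9 to 91.2 CPM in Landrace and 23.8 to 62.5 and 49.0 to 80.6 CPM in Duroc. The sum of 4 macrophage markers was 6.68 to 11.5 CPM in Landrace low and 7.90 to 20.3 in Landrace high, where LH2 was again highest, and 7.67 to 12.2 and 9.03 to 14.2 CPM in Duroc. With an unadjusted p under 0.05 and a positive logFC there were 5 of 5 peritubular, 2 of 3 endothelial and 2 of 4 macrophage markers in Landrace, and 1 of each list in Duroc.

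Spermatid markers and most spermatocyte markers went the other way, while spermatogonia markers were split. All 10 spermatid markers had a negative logFC in both breeds, with 2 in Landrace and 7 in Duroc down at an unadjusted p under 0.05, against 4.53% and 9.89% of all genes down. The Duroc count includes CAPZA3 and PLCZ1, which the study had already called in these Duroc boars. The spermatid sum was 12400 to 16400 CPM in Landrace low, 10900 to 14800 in Landrace high, 13200 to 17100 in Duroc low and 9700 to 13700 in Duroc high. The 7 spermatocyte markers summed to 976 to 1120 and 913 to 1040 CPM in Landrace and to 971 to 1060 and 877 to 951 CPM in Duroc. The logFC was negative for 6 of them in Landrace and 7 in Duroc, with 3 and 2 down at an unadjusted p under 0.05. SPO11 was the exception, at 0.49 (SE 0.36) in Landrace. Of the 5 tested spermatogonia markers, 2 had a positive and 3 a negative logFC in each breed. The 6 Sertoli markers, at 1860 to 2390 and 1640 to 2210 CPM in Landrace and 2100 to 2670 and 2120 to 3750 CPM in Duroc, included 0 genes at an unadjusted p under 0.05 in either breed, and so did the 5 tested spermatogonia markers, whose list summed to 44.0 to 85.9 CPM over all boars. No matched marker was at the lowest value of 1 in every boar, and only GFRA1, of spermatogonia, was under the filter. In bulk tissue, fewer cells of a type and less RNA per cell cannot be told apart, and the part of the cell mix in the VDAC1 and DLD values was not tested.

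**Figure D4:**
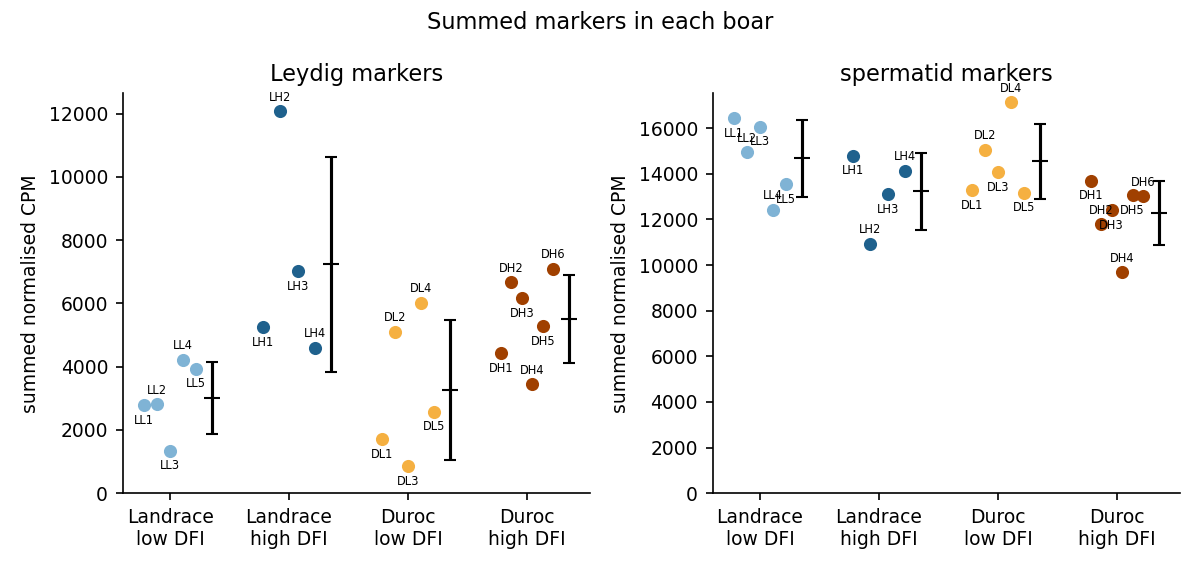
Summed normalised CPM of 6 Leydig cell markers (left) and 10 spermatid markers (right) in each boar, by group, with the group mean and its SD as a bar. LH2 has the highest Leydig sum, near 12100 CPM, and the Landrace groups do not overlap in it, while the spermatid sums overlap between the DFI groups of each breed.

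The genes whose log2 level was most like that of VDAC1 over the 20 boars, among 14635 others, were CTSA, a lysosomal carboxypeptidase (Pearson's r 0.97, or 0.95 on deviations from the group means), ENSSSCG00000003158 (0.97), TFE3, a transcription factor of lysosome genes (0.97), NPC2, which carries cholesterol in lysosomes (0.97), and BCKDHA (0.97). BCKDHA is a subunit of a DLD complex, and its values stand above. DLD ranked 118 for VDAC1, with r of 0.91. The genes most like DLD were PPP1CB, a catalytic subunit of protein phosphatase 1 (r 0.96), TXLNA (0.95), SDHD, the membrane anchor of succinate dehydrogenase (0.94), MFSD1 (0.94) and FBXO21 (0.94), and VDAC1 ranked 45. In Landrace the logFC of CTSA was 0.82 (SE 0.21) and that of SDHD 0.53 (SE 0.19), and in Duroc 0.53 (SE 0.15) and 0.31 (SE 0.08). These r are a description over boars that share the group differences and the normalization, with no test.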

How the data were processed

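The deposited values were raw counts of reads per Ensembl gene, which the authors made with TopHat2 2.0.12 on pig genome build 10.2, SAMtools 1.1 and HTSeq without strand, from non-stranded single-end libraries of testis RNA. The lowest value in every library is 1, and how 0 was handled is not given in the sources used here. The main tool was edgeR 4.0.16 in R 4.3.3. Genes over 1 CPM in 5 or more of 9 Landrace, 6 of 11 Duroc or 10 of 20 boars were kept and normalized by the trimmed mean of M values. Groups were contrasted by quasi-likelihood, with p adjusted by Benjamini and Hochberg across the genes of each fit. Printed CPM values were normalized over all 20 boars. Each breed was fitted on its own, and breeds were contrasted in 1 fit of 20 boars. Correlations and permutation tests used log2(CPM + 0.5) in scipy 1.17.1. Alternatives were edgeR's likelihood ratio test, DESeq2 1.42.0, limma 3.58.1 voom, other normalization and filters, title series and each boar left out. On simulated counts, 81% of log2 changes of 1 and 99% of log2 changes of 2 were recovered among 14428 genes of the Landrace design. The Landrace logFC of VDAC1 and DLD were smaller than the changes planted, and each gene was drawn independently. The simulation therefore gives no rate of recovery for the pair.

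VDAC1 and DLD, the gene lists and the tests were chosen with earlier results of these data known. Some list members, such as CSF1R and ACTA2 among the markers, are genes that the study had called in these boars. Named genes were the pair, all members of the VDAC family and DLD complexes, the 3 genes of each other pathway list with the smallest p in either breed, and the 5 genes most like each of the pair. Symbols came from a table of gene names (11724 of 22059 identifiers), in which 137 of 178 list symbols were found. DFI is that of the sample labels, which for some Landrace boars differs from the value in the study's text, and the reason is not given in the sources used here. Boars were numbered in order of deposit, which pairs none. Between any pair of libraries, the counts of at most 0.3408% of genes over 200 reads in every boar were equal. Each library is 1 boar, so p-values measure the spread between boars. Overlap with neighbouring or antisense genes could not be told apart without strand. Genomic positions, sequences and 1 gene that the rule names are not reported here.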

Additional observations from a re-analysis of the deposited data

Results flagged for a closer look

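The total count of LH1 stood apart from the other Landrace high DFI libraries, with a gap to the nearest library of 0.848 of the group's range on the log2 scale. LH1 also had the lowest VDAC1 and DLD of its group, and without it the Landrace logFC was 1.02 for VDAC1 and 0.68 for DLD. The summed Sertoli markers of DH4 were far above those of the other Duroc high DFI boars, with a gap of 0.772 of the range. In DH4, VDAC1 was at 29.3 CPM and DLD at 68.8 CPM, inside the range of its group. These were 2 of 48 groups of values examined, and chance alone flags about 1 in 20.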

How the results depend on the processing

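The logFC of VDAC1 in Landrace kept its direction under every alternative run (0.82 to 1.03, and 0.55 to 1.02 with a boar left out). It passed the adjusted threshold only in the likelihood ratio test (logFC 0.85), DESeq2 (0.85) and the fit of 20 boars (0.86), whose spread is shared with the Duroc boars. For DLD the range was 0.51 to 0.68 (0.27 to 0.68 with a boar left out), with no call. The breed difference of DLD at low DFI turned to -0.0122 without LL1 (up to 0.0782 without another boar) and to -0.0529 without the consecutive titles in Landrace low, and at high DFI, without LH2, it turned to 0.0757 for DLD (lowest -0.33) and 0.12 for VDAC1 (lowest -0.34). The correlation of the pair lost its adjusted call without LH1 and LH2 (r 0.66 in 20 boars less 2, 0.89 in Landrace). The cause was not tested. The Duroc logFC kept its direction in the alternatives run, and the counts of pathway genes changed by less than 1.5 times. The correlations with DFI stayed negative and did not pass the adjusted threshold, but their size changed more. Without the 2 boars of the farthest DFI, r over 20 boars went from -0.106 to -0.328 for VDAC1 and from -0.138 to -0.413 for DLD. In Duroc high it went from -0.395 to -0.931 for DLD. No paired analysis was possible because the labels give the boars no shared numbers.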
